A study of Mus musculus with 6 samples.

Results

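The proteasome genes were those of the deposited mouse gene table whose symbols begin with Psma, Psmb, Psmc, Psmd, Psme, Psmf or Psmg followed by a number. The immune subunits Psmb8, Psmb9 and Psmb10 were left out, as was any pseudogene. Of the 48 matching symbols 45 remained, out of 14619 listed genes. They comprised 43 genes of proteasome subunits, regulators and chaperones, and 2 genes matched by symbol only, Psmc3ip and Psme3ip1, whose products are named for an interacting protein. All 45 had a mean CPM (reads scaled to a common library total) of at least 1, with a range of 1.12 to 258. The members were picked by name, not by their values, but with earlier results of these data known. RNA came from the tibialis anterior, a shin muscle, of mice. The 3 knockout libraries (replicates 5, 7 and 8) had the genotype HSA-Cre Tg/+; Acin1 F/F, and the 3 control libraries (replicates 1, 2 and 3) had HSA-Cre Tg/+; Acin1 +/+. Both groups therefore carried the Cre transgene, whose human skeletal actin promoter is active in muscle fibres. Other cells of the muscle should thus keep Acin1, which was not measured by cell type. Age, sex and strain are not given in the sources used here. Nor do the labels state that the libraries come from different animals, and the spread behind each p-value may in part be technical. Acinus, the product of Acin1, is a nuclear protein that binds RNA and is linked to splicing and to the exon junction complex.

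The proteasome is the protease that degrades proteins tagged with ubiquitin. Its core is a stack of alpha and beta rings, in which Psmb5, Psmb6 and Psmb7 encode the subunits that cut peptide bonds. The 19S particle caps the core, with a ring of ATPases (Psmc genes) that unfolds substrates and non-ATPase subunits (most Psmd genes) that bind and remove ubiquitin. Psme genes encode other caps, Psmf1 an inhibitor, and Psmg genes and Psmd5, Psmd9 and Psmd10 chaperones that help to assemble the core or the base of the 19S particle. In skeletal muscle this system breaks down contractile proteins during atrophy and remodelling, and its subunit genes are known to be induced together by the transcription factor Nfe2l1 (Nrf1).

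The libraries held 21084522 to 29301125 reads in listed genes, of which mitochondrial genes took 21.37% to 24.13%. Values below are reads divided by the authors' library factor ("scaled reads"), recovered from the deposited log2 values, and log2 changes are knockout over control on the log2(scaled reads + 4) scale. Acin1 had 1196, 1196 and 1195 scaled reads in knockout libraries, against 1513, 1559 and 1413 in control libraries. It fell by 0.32 on the log2 scale (SE 0.0709, limma adjusted p = 0.0266), and this call was lost when control replicate 1, 2 or 3 or knockout replicate 7 was left out (limma adjusted p = 0.0587 to 0.0973). The exons that the floxed allele removes are not given in the sources used here, so whole-gene reads check the genotype only in part. Of 9 fibre markers 0 changed (limma adjusted p under 0.05), with sums of 2639000 to 3161000 scaled reads in knockout libraries and 2899000 to 3136000 in control libraries. At an unadjusted p under 0.05 the count was also 0, and by the authors' adjusted p 1 fibre marker, Myh1, was lower. Of 8 regenerating-fibre markers 4 rose (Myh3, Myh8, Mymk and Actc1), with sums of 9662 to 20130 against 2752 to 5267 (limma-voom called 1 of them). Actc1 made up most of these sums (9355 to 19600 against 2564 to 5126) and was highest in knockout replicate 7. Myh3, Myh8 and Mymk were highest in knockout replicate 8, at 498.5, 484.3 and 193.4 scaled reads. Knockout replicates 5 and 7 had 121.7 and 185.4 for Myh3, 88.69 and 194.2 for Myh8, and 21.66 and 47.45 for Mymk. The control libraries had at most 47.53, 32.24 and 4.606. Chrng and Mymx lay higher and Pax7 lower without overlap, Myog overlapped, and none of these passed the test. Of 6 endothelial markers 4 fell, with sums of 6750 to 8692 against 9665 to 10710. All 6 lay lower without overlap, against 17.6% of all genes. All 6 were also lower at an unadjusted p under 0.05 and by the authors' adjusted p, against 14.9% and 5.93% of all genes. Of all listed genes 5.74% rose and 5.51% fell. Of 10 macrophage markers 0 changed (1 higher and 1 lower at an unadjusted p under 0.05, with Cd68 higher by the authors' adjusted p), with sums of 850.8 to 2690 against 1059 to 1515. The sum of 2690 was that of knockout replicate 8, and knockout replicates 5 and 7 had 850.8 and 1256. The liver marker Alb had 0 to 8.87 scaled reads against 0 to 16.26, while the liver markers Apoa1 and Ttr and the 3 brain markers were not among the listed genes. In bulk muscle, fewer cells of a type and less RNA per cell cannot be told apart, and the part of these shifts in the proteasome results was not tested.

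Most proteasome genes were slightly more abundant in knockout muscle, and the catalytic subunit gene Psmb5 was less abundant. Of the 45 genes, 8 rose (Psma1, Psma4, Psmb6, Psmc1, Psmc3, Psmc4, Psmc6 and Psmd6), 1 fell (Psmb5) and 36 did not pass the test (limma, Benjamini-Hochberg adjusted p under 0.05 over all genes). Of all listed genes 5.74% rose and 5.51% fell. At an unadjusted p under 0.05, 24 of the 45 lay higher and 1 lower, against 14.4% and 14.9% of all genes. By the adjusted p in the authors' deposited table, higher calls numbered 11 and lower calls 1, against 6.22% and 5.93% of all genes. The changes were small: the risen genes reached 1.22 to 1.32 times the control mean, and Psmb5 had 77.1% of it. The log2 change was above 0 for 39 of 45 genes, compared with 49.0% of all genes. The median log2 change was 0.218 over the 45 genes and -0.00719 over all genes. Knockout and control libraries did not overlap for 32 of the 45: 30 lay higher in knockout and 2 (Psmb5 and Psmc3ip) lay lower, against 17.7% and 17.6% of all genes.

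The 30 subunits of the core rings and the 19S particle other than Psmb5 each had a log2 change above 0, with a range of 0.015 to 0.398 and a median of 0.248. Relative to each gene's own mean over the control libraries, their median level on the log2 scale was 0.255, 0.214 and 0.304 in knockout replicates 5, 7 and 8, and -0.135, 0.0574 and 0.0735 in control replicates 1, 2 and 3. The same medians over all genes lay between -0.00908 and 0.00945. Control replicate 1 was the lowest of the 6 libraries for 29 of the 30 subunits, and control replicate 3 for the other. Knockout replicate 8 was the highest for 17, knockout replicate 5 for 12 and knockout replicate 7 for 1. Without control replicate 1 the log2 change stayed above 0 for 29 of the 30 and their median was 0.189, but 0 of the 45 genes passed the test as higher. Leaving out control replicate 2 or 3 likewise gave 0 higher calls, leaving out knockout replicate 5 gave 4, and leaving out knockout replicate 7 or 8 gave 1.

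Among the beta ring genes, which form the chamber where proteins are cut, the catalytic subunits did not move together. Psmb5 encodes the chymotrypsin-like subunit. It had 1651, 1527 and 1650 scaled reads in knockout libraries, against 1966, 2186 and 2114 in control libraries. The groups did not overlap, and Psmb5 fell by 0.375 on the log2 scale (SE 0.0749, limma adjusted p = 0.0196). Psmb6, which encodes the caspase-like subunit, had 2573, 2409 and 2676 scaled reads in knockout libraries, against 1745, 2040 and 2044 in control libraries. Each knockout library exceeded each control library, and Psmb6 rose by 0.40 (log2, SE 0.0866, limma adjusted p = 0.0255). Psmb7, the trypsin-like subunit gene, had 6286, 6442 and 6431 scaled reads in knockout libraries, against 4766, 5555 and 5582 in control libraries. Its groups did not overlap either, but its log2 change of 0.27 did not pass the test (SE 0.0823, limma adjusted p = 0.0668). The structural subunits Psmb1, Psmb2, Psmb3 and Psmb4 had log2 changes of 0.14 (Psmb2) to 0.25 (Psmb1), with limma adjusted p of 0.0706 to 0.325. Psmb5 was lower in each of the 6 fits that left out 1 library, but lost its call in those that left out control replicate 2 (limma adjusted p = 0.0755), control replicate 3 (0.072) and knockout replicate 7 (0.072). Psmb6 lost its call in some of them as well (limma adjusted p = 0.0456 to 0.0764).

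Because the subunits occupy fixed places in the ring, the ratio of their reads was compared within each library. Scaled reads of Psmb5 per read of Psmb6 were 0.642, 0.634 and 0.617 in knockout libraries, against 1.13, 1.07 and 1.03 in control libraries. Psmb5 thus exceeded Psmb6 in each control library and lay below it in each knockout library (0.631 ± 0.0129 against 1.08 ± 0.0465, SD, n = 3 each; two-sided exact permutation test, p = 0.1, the smallest that 3 against 3 allows). Per read of Psmb7, Psmb5 had 0.263, 0.237 and 0.257 reads in knockout libraries and 0.412, 0.393 and 0.379 in control libraries (two-sided exact permutation test, p = 0.1). Psmb5 was lower, and Psmb6 and Psmb7 were higher, without overlap, so both ratios had to separate. The ratios and their p-values therefore restate the gene levels and add no separate support. Control replicate 1, low for the other ring genes, had the highest ratio of its group in both cases.

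**Figure D1:**
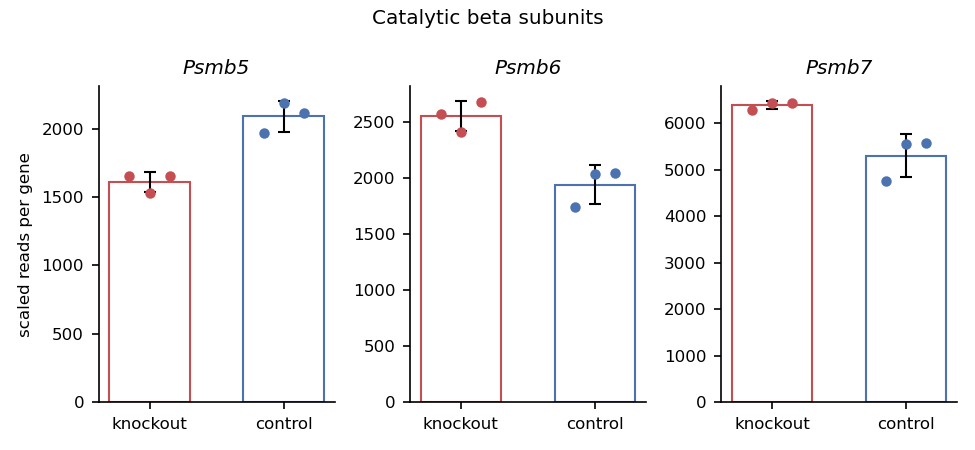
Scaled reads of the catalytic subunit genes Psmb5, Psmb6 and Psmb7 in knockout (left) and control (right) libraries; bars are means of 3 libraries, lines 1 SD and points single libraries. Psmb5 is lower and Psmb6 and Psmb7 are higher in knockout libraries, without overlap between groups.

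The alpha ring genes encode the outer rings, which gate entry to the core. Of 7, 2 rose and 0 fell, against 5.74% and 5.51% of all genes, with log2 changes of 0.14 to 0.40 and a median of 0.227. Psma4 had 2302, 2181 and 2415 scaled reads in knockout libraries, against 1560, 1869 and 1815 in control libraries. All 3 knockout values lay above the control range, and Psma4 rose by 0.40 (log2, SE 0.0885, limma adjusted p = 0.0269). Psma1 had 1575, 1531 and 1631 scaled reads in knockout libraries, against 1138, 1238 and 1326 in control libraries (log2 change 0.36, SE 0.0799, limma adjusted p = 0.0270). Its groups did not overlap. Psma7 had the lowest change of this ring, 1045 ± 29.4 scaled reads in knockout libraries and 947.7 ± 64.4 in control libraries (SD, n = 3 each), a log2 change of 0.14 with a limma adjusted p of 0.269. Psma2 was the alpha subunit gene whose groups overlapped.

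The ATPase genes held the highest share of calls. Of the 6 genes of this unfolding ring, 4 rose and 0 fell, against 5.74% and 5.51% of all genes. All 6 lay higher in knockout without overlap, against 17.7% of all genes, and the median log2 change was 0.306. Psmc6 had 1947, 1748 and 1989 scaled reads in knockout libraries, against 1406, 1541 and 1497 in control libraries. It had the highest change of the ring (log2 change 0.35, SE 0.0794, limma adjusted p = 0.0274). Psmc4 followed with 1872, 1702 and 1788 scaled reads in knockout libraries, against 1266, 1459 and 1493 in control libraries (log2 change 0.35, SE 0.086, limma adjusted p = 0.0367). Psmc1 averaged 2410 ± 150 scaled reads in knockout libraries and 1962 ± 76.7 in control libraries (SD, n = 3 each; limma adjusted p = 0.0409). Psmc3 averaged 3507 ± 116 and 2886 ± 184 scaled reads in knockout and control libraries (SD, n = 3 each; limma adjusted p = 0.0464). Psmc5 and Psmc2 did not pass the test, with log2 changes of 0.32 (limma adjusted p = 0.0705) and 0.18 (0.197), and Psmc2 was the lowest of the ring.

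Of the 11 non-ATPase genes of the 19S particle, 1 rose and 0 fell, against 5.74% and 5.51% of all genes. The median log2 change was 0.218, and 9 lay higher in knockout without overlap, against 17.7% of all genes. Psmd6, which encodes a lid subunit, had 2091, 2117 and 2181 scaled reads in knockout libraries, against 1540, 1859 and 1763 in control libraries. The knockout libraries lay close together above the control range (log2 change 0.31, SE 0.0847, limma adjusted p = 0.0494). Psmd8 had the largest log2 change of the group, 0.36, but an SE of 0.137 and a limma adjusted p of 0.125. It had 3694, 3400 and 3890 scaled reads in knockout libraries, against 2257, 3155 and 3268 in control libraries, so that control replicate 1 lay far below the other controls. Psmd13 was just short of the threshold (log2 change 0.32, limma adjusted p = 0.0501). Psmd3 had the lowest change, with 1803, 1882 and 1962 scaled reads in knockout libraries and 1710, 1958 and 1926 in control libraries (log2 change 0.015, limma adjusted p = 0.923). Its groups overlapped, as did those of Psmd7. The ubiquitin receptor gene Psmd4 had a log2 change of 0.30 (limma adjusted p = 0.0775), and Psmd1 and Psmd2, which encode the scaffold subunits of the base, 0.094 and 0.19 (limma adjusted p = 0.39 and 0.159).

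Of the 5 genes for other caps and for the inhibitor 0 changed by limma, limma-voom or the authors' adjusted p, with 1 (Psme3) at an unadjusted p under 0.05. Their median log2 change was -0.048. Psme3, a nuclear cap, had the highest value, 1343, 1382 and 1242 scaled reads in knockout libraries against 1118, 1168 and 1204 in control libraries (log2 change 0.18, limma adjusted p = 0.148). Psme4, which encodes the large cap PA200, had 8023, 6444 and 5260 scaled reads in knockout libraries and 6666, 7053 and 7101 in control libraries. The knockout libraries spanned the control range on both sides, and the log2 change of -0.099 changed sign without knockout replicate 8. Psme1 and Psme2, which encode the interferon-inducible cap PA28, had log2 changes of -0.098 and 0.072 (limma adjusted p = 0.511 and 0.814), and the inhibitor gene Psmf1 -0.048 (limma adjusted p = 0.772).

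Of the assembly chaperones 0 of 7 changed by the same 3 adjusted tests. The 4 chaperones of the core, of which 3 had an unadjusted p under 0.05 (against 14.4% of all genes higher), had a median log2 change of 0.371. Of these 4, 3 lay higher in knockout without overlap, against 17.7% of all genes. Psmg3 had 131.0, 101.0 and 101.1 scaled reads in knockout libraries, against 77.38, 86.88 and 82.54 in control libraries (log2 change 0.41, SE 0.154, limma adjusted p = 0.121). Its knockout libraries lay above the control libraries, at fewer reads than any ring gene. Psmg1 and Psmg2 had log2 changes of 0.38 and 0.36 (limma adjusted p = 0.126 and 0.0673), and Psmg4 had the lowest, 0.13 (limma adjusted p = 0.675). The 3 chaperones of the base, Psmd5, Psmd9 and Psmd10, had a median log2 change of 0.122, between -0.092 for Psmd9 (limma adjusted p = 0.541) and 0.23 for Psmd10 (limma adjusted p = 0.278). Of the genes matched by symbol only, Psmc3ip had 23.89 ± 1.81 scaled reads in knockout libraries and 34.87 ± 5.74 in control libraries (SD, n = 3 each), a log2 change of -0.47 with a limma adjusted p of 0.19, and Psme3ip1 had a log2 change of 0.125 (limma adjusted p = 0.393).

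**Figure D2:**
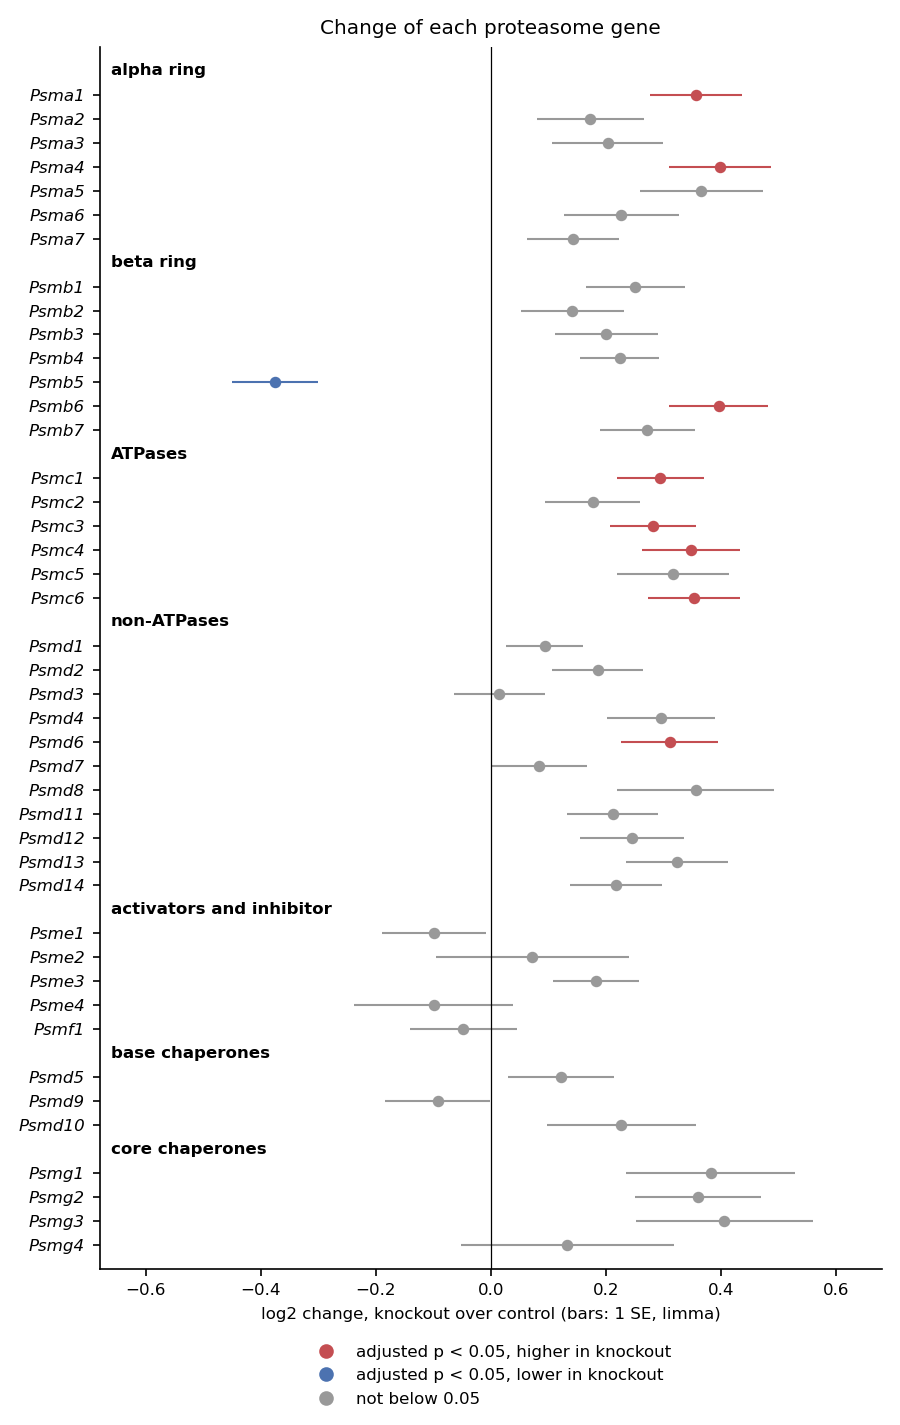
log2 change of each proteasome gene, knockout over control (points; lines are 1 SE of the limma fit), grouped by role; red and blue points have an adjusted p under 0.05 and grey points do not. The red points are 8 genes of the rings and the 19S particle, the blue point is Psmb5, and the other caps, the inhibitor and the base chaperones scatter around 0.

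Levels were set against each other per kb of transcript, using for each gene the transcript with the longest coding sequence in GENCODE M21. Among the ring genes Psmb7 was the most abundant, with 5505 scaled reads per kb in knockout libraries and 4570 in control libraries, and Psma2 the least, with 525.3 and 466.2. Psmb6 and Psmb5 came next in control libraries, with 2435 and 2323 scaled reads per kb. In knockout libraries Psmb6 had 3199 scaled reads per kb, and Psmb5, with 1790, stood below Psma6 (2558), Psmb3 (2415) and Psma4 (1974). In the 19S particle the levels ran between 606.8 scaled reads per kb (Psmd14) and 2377 (Psmd8) in knockout libraries, and between 521.5 (Psmd14) and 1939 (Psmd2) in control libraries. The core chaperone genes lay lower, at 125.8 to 420.7 scaled reads per kb in knockout libraries and 93.17 to 327.2 in control libraries. These orders depend on the transcript chosen. That of Psma2 has 2911 bases, of which 702 are coding, and before division by length Psma2 had more scaled reads than Psma5 or Psma7.

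**Figure D3:**
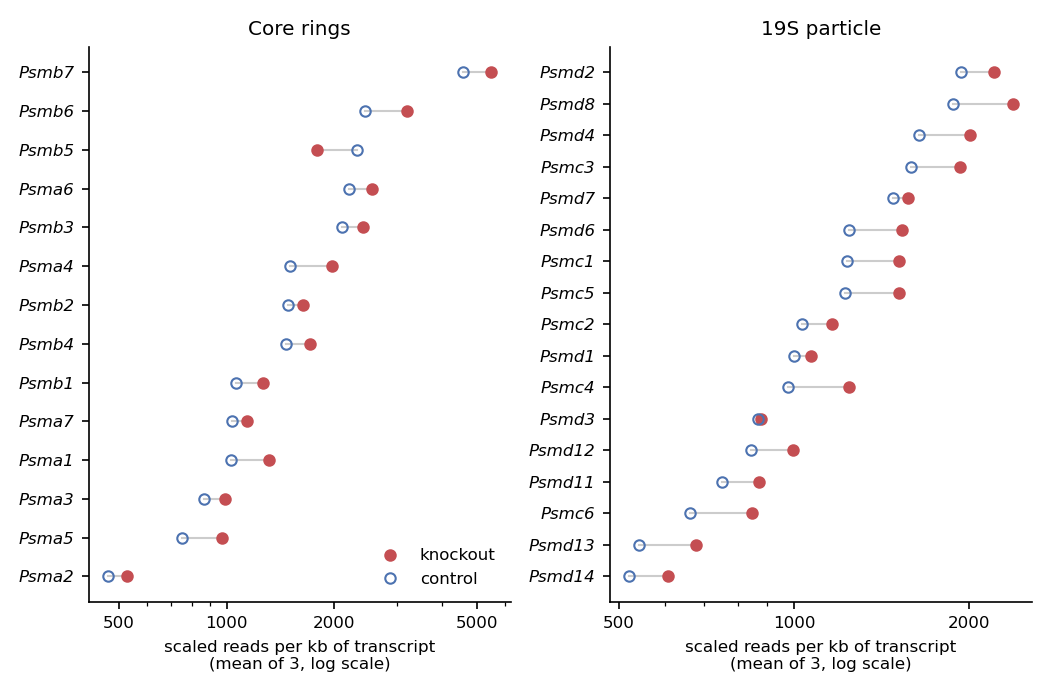
Mean scaled reads per kb of transcript (log axis) of the core ring genes and the 19S genes, ordered by the control level; filled red points are knockout and open blue points control means of 3 libraries. Each gene but Psmb5 has its knockout point at or to the right of its control point.

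Psmb5 and Acin1 are neighbours. On GRCm38 Psmb5 spans chr14:54614119-54618022 on the minus strand, 24.1 kb from Acin1 (chr14:54642161-54686931, same strand). A change carried by the chromosome segment of the floxed allele and one that follows the loss of Acin1 cannot be told apart for genes so close. Of the 6 measured genes within 100 kb of Acin1, 1 rose and 3 fell (limma adjusted p under 0.05): Haus4 (log2 change 0.876), Psmb5, Slc7a8 (-0.601) and Ajuba (-1.016). Within 500 kb 5 of 30 rose and 7 fell, and within 1 Mb (1000 kb) 7 of 49 rose and 7 fell. Of all listed genes 5.74% rose and 5.51% fell. Other members on chromosome 14 lay farther off. Psme1 and Psme2, at 891 and 901 kb, did not pass the test, and Psmc6 at 9.29 Mb and Psmd6 at 40.5 Mb rose. The other 6 genes that rose lie on other chromosomes.

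The promoters of Psmb6 and Psmb5 are shown because these genes moved in opposite directions and both sequences hold the motif TGACNNNGC, the core of the antioxidant response element to which Nfe2l1 and Nfe2l2 bind. The sequences are from RefSeq (GRCm38.p6), with 250 bases before and 50 after the start of transcription, and capitals mark the motif. The Psmb6 promoter lies at chr11:70525107-70525406 on the plus strand and that of Psmb5 at chr14:54617946-54618245 on the minus strand.
Psmb6 promoter: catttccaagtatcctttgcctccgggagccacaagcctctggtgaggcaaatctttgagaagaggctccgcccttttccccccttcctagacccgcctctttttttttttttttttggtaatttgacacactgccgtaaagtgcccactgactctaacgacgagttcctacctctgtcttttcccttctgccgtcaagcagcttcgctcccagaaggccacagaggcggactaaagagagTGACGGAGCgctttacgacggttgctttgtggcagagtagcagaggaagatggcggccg
Psmb5 promoter: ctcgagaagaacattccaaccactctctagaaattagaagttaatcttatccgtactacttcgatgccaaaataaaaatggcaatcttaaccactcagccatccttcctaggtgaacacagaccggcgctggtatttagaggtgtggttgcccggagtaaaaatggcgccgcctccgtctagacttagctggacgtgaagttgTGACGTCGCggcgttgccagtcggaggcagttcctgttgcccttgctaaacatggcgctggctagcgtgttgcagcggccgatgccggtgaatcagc

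The RefSeq table held 42 promoters for 38 of the 45 genes. TGACNNNGC, searched on both strands, was found in 6 of the 42 (14.3%), compared with 12.4% of all 32851 promoters. The genes with a match were Psmb5, Psmb6, Psmc6, Psmd12, Psmd9 and Psme4, of which 2 rose, 1 fell and 3 did not pass the test. CCAAT was found in 33.3% of the members' promoters and 37.4% of all promoters, and GGGCGG, a GC box, in 57.1% and 35.7% (both strands). Each motif was searched on its own, so matches of different motifs may overlap, and a match describes these letters only.

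Splicing of the proteasome genes was read from the deposited rMATS junction counts, where inclusion is the share of transcripts that keep an exon or segment. Of 143 events in 40 member genes with a mean of at least 20 junction reads per library, 2 were called at the deposited false discovery rate (FDR under 0.05), 1.4% against 3.44% of all events. The first is an exon of Psmd14, which encodes the 19S subunit that cuts ubiquitin chains off substrates (RPN11 in yeast). It lies at chr2:61591319-61591438 on the plus strand (GRCm39). Its inclusion was 75.7%, 61.6% and 73.9% in the 3 knockout libraries, against 100%, 100% and 98.8% in the 3 control libraries. Junction reads that skip the exon numbered 33, 56 and 42 in knockout libraries, beside 206, 180 and 238 reads that include it. In control libraries 0, 0 and 1 reads skipped it, beside 241, 208 and 160 that include it. Mean inclusion was 70.4% ± 7.67 in knockout and 99.6% ± 0.693 in control libraries (SD, n = 3 each), a difference of -29.2 percentage points. The deposited FDR is listed as 0, limma on the logit of inclusion gave an adjusted p of 0.000108, and the two-sided exact permutation test gave p = 0.1, the smallest it allows. The rMATS tables do not tie their entries to the numbered replicates.

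The exon is exon 5 of Psmd14-201 in GENCODE M21 (chr2:61760975-61761094 on GRCm38). It is 120 bases long, wholly coding, and holds codons 41 to 80, so that a transcript without it keeps the reading frame. It is printed with 20 bases of exons 4 and 6 on either side, and capitals mark the exon that was skipped.
Psmd14 exon 5: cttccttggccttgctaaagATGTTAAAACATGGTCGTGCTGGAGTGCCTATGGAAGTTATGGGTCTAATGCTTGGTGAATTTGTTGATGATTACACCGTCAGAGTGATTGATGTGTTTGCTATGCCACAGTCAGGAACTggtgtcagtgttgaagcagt

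The Psmd14 gene as a whole did not pass the test at the level of reads. It had 977.7, 905.9 and 921.6 scaled reads in knockout libraries, against 750.8, 818.5 and 841.7 in control libraries (log2 change 0.22, SE 0.0796, limma adjusted p = 0.11). The groups did not overlap. In the authors' deposited CASH table, whose pooled knockout column matched the reads of 2 of the 3 knockout libraries, a longer unit that starts at the same base had 396 including and 89 skipping junction reads in knockout, against 621 and 1 in control. Skipping reads made up 18.4% of these junction reads (95% exact Clopper-Pearson interval 15% to 22.1%) in knockout and 0.161% (0.00407% to 0.892%) in control. The intervals cover counting error only. These are shares of reads, in which an included exon can count at 2 junctions and a skipped one at 1. The rMATS inclusion allows for this, so the sizes of the 2 measures cannot be compared directly. The CASH FDR of this unit was 0.999, so that the deposited tables differ in their call. The second called rMATS event is an exon of the chaperone gene Psmd5 (chr2:34756905-34757049, minus strand, GRCm39, 145 bases). Its inclusion was 80.0%, 77.8% and 81.3% in knockout libraries, against 100%, 100% and 86.7% in control libraries. This rests on few reads, 3, 3 and 3 skipping reads in knockout libraries and 0, 0 and 1 in control libraries (deposited FDR 0.00686), and limma on the logit of inclusion did not call it (adjusted p = 0.365).

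Psmb5 carried the 1 member event that CASH called, of 154 listed for the members. Of all 60273 CASH events 28, or 0.0465%, were called. The event is an alternative end (5' splice site) of exon 2. The long form extends 261 bases beyond the short form, at chr14:54853972-54854232 on the minus strand (GRCm39). GENCODE M21 annotates both, 307 bases in Psmb5-201 and 46 bases in Psmb5-202. The segment between them is coding and its length is a multiple of 3. It is printed from Psmb5-201 (chr14:54616515-54616775 on GRCm38, minus strand) with 19 bases on either side. Capitals mark the segment that only the long form holds, which begins with the letters GT.
Psmb5 exon 2 end: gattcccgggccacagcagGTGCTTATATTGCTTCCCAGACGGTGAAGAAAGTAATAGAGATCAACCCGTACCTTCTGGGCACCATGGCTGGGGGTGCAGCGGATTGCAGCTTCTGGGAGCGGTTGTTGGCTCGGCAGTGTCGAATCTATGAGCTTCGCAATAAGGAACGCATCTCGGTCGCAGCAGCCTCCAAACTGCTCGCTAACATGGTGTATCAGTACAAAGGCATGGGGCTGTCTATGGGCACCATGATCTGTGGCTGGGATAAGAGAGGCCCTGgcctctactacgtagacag

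Inclusive reads of this event were scarcer in knockout muscle. Of the expression reads that CASH assigned to the event, which are not junction reads, 99 of 954 were inclusive (assigned to the segment) in knockout (10.4%, 95% exact interval 8.51% to 12.5%), against 953 of 2752 in control (34.6%, 32.9% to 36.4%). Exclusive junction reads, which leave the segment out, made up 36 of 476 in knockout (7.56%, 5.35% to 10.3%), against 8 of 1015 in control (0.788%, 0.341% to 1.55%). These CASH values are pooled and have no replicates. Among 467 alternative 5' events with at least 500 such expression reads per group and 100 inclusive ones in control, Psmb5 had the lowest ratio of inclusive shares, knockout over control (log2 ratio -1.74), followed by Ndufaf5 (-0.765), with a median of 0.000298. The event was chosen by its call in the same CASH data, so this rank describes its size and is no separate support. rMATS did not list this event among alternative 5' sites, but its skipped-exon table counts both forms of exon 2 in each library. Reads counted for the long form numbered 597, 625 and 703 in knockout libraries, against 1023, 964 and 801 in control libraries. Reads counted for the short form numbered 272, 287 and 332 in knockout libraries, against 331, 323 and 249 in control libraries. Reads over the junction that both forms share can enter both counts. CASH had only 36 junction reads in knockout and 8 in control that leave the segment out. Few of the reads counted for the short form can thus be its own, and the ratio of both counts is not the ratio of the forms. This ratio of counts, short over long, was 0.456, 0.459 and 0.472 in knockout libraries, against 0.324, 0.335 and 0.311 in control libraries. The groups did not overlap (0.462 ± 0.00876 against 0.323 ± 0.0121, SD, n = 3 each; two-sided exact permutation test, p = 0.1, the smallest it allows). Inclusion of the long form as a whole exon was 99.4% to 99.7% in knockout and 99.5% to 100% in control libraries (deposited FDR 1). The same limit of position near Acin1 holds here as for the level of Psmb5.

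**Figure D4:**
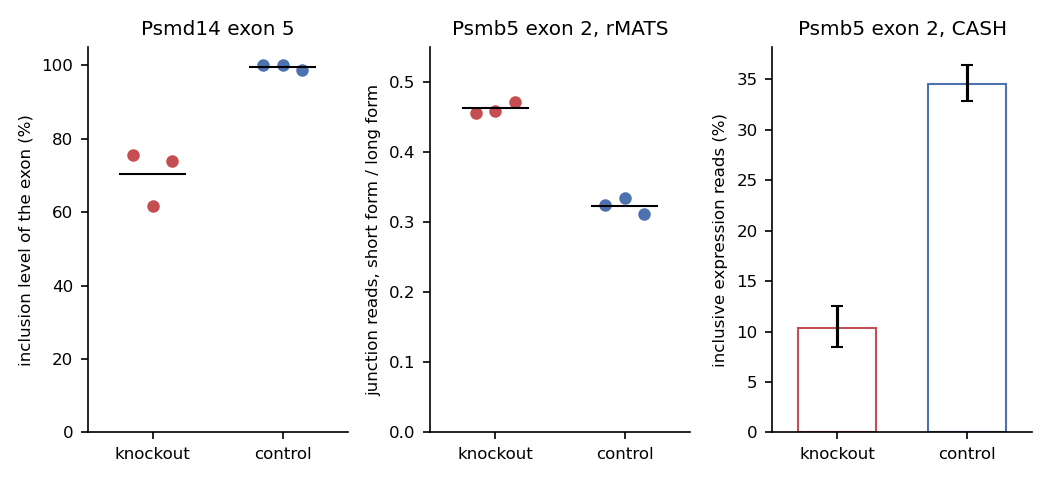
Left, inclusion level of Psmd14 exon 5 in each library; middle, junction reads counted for the short form of Psmb5 exon 2 per read of the long form in each library (lines are means of 3); right, share of the pooled CASH expression reads of the Psmb5 event that were inclusive, with 95% exact intervals. Knockout is left of control in each panel, and it is lower in the left and right panels and higher in the middle one. Both counts in the middle panel can include reads over a junction that the forms share, so the ratio is not that of the forms.

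The other member events moved little. Of the 141 that were not called, 140 differed by under 5 percentage points between the group means, and the median absolute difference was 0.333 points. The exception was an alternative 5' site of Psmd4, the ubiquitin receptor gene (chr3:94941220-94941337, minus strand, GRCm39). Its inclusion was 44.1%, 39.2% and 50.4% in knockout libraries and 36.5%, 41.9% and 35.0% in control libraries, with overlap between groups (deposited FDR 0.461).

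Genes that work with the proteasome were examined as lists. The limma counts of each list stand beside the 5.74% of all genes that rose and the 5.51% that fell. Of 10 measured partners, 2 rose and 0 fell. Uchl5, a deubiquitinase bound to the 19S particle, had 801.3, 602.7 and 594.3 scaled reads in knockout libraries, against 339.9, 316.1 and 370.2 in control libraries. Its knockout libraries lay well above the control libraries (log2 change 0.94, SE 0.13, limma adjusted p = 0.00545), and the call held in each fit that left out 1 library (limma adjusted p = 0.00622 to 0.0302). Pomp, the chaperone that brings beta subunits into the core, had 1955, 1956 and 2140 scaled reads in knockout libraries, against 1461, 1553 and 1437 in control libraries (log2 change 0.44, SE 0.0739, limma adjusted p = 0.0114). The groups did not overlap, and the call was lost without control replicate 3 (limma adjusted p = 0.0519). The other 8 partners did not pass the test, and Ecpas, an adaptor of the proteasome, was the lowest (log2 change -0.43, limma adjusted p = 0.121). At an unadjusted p under 0.05, 3 partners were higher and 3 lower, against 14.4% and 14.9% of all genes. By the authors' adjusted p, 2 were higher and 1 lower, against 6.22% and 5.93%. Without overlap 4 lay higher and 3 lower (Ecpas, Ube3c and Zfand5), against 17.7% and 17.6%.

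Of 10 genes of the Nfe2l1 axis 0 changed by limma, limma-voom, the authors' adjusted p or an unadjusted p under 0.05, with a median log2 change of -0.116. Nfe2l1 itself had 16810, 17240 and 17360 scaled reads in knockout libraries and 15830, 15780 and 18290 in control libraries (log2 change 0.046, limma adjusted p = 0.768). Ddi2, the protease that releases Nfe2l1, had 2008, 1873 and 2177 scaled reads in knockout libraries and 2780, 1762 and 2111 in control libraries (log2 change -0.11, limma adjusted p = 0.664), and both genes had overlapping groups. Among 7 antioxidant response genes Nqo1, a quinone reductase, rose (log2 change 0.997, limma adjusted p = 0.0306) and Gclc, of glutathione synthesis, fell (-0.705, limma adjusted p = 0.0187). Nqo1 had 509.5, 504.3 and 959.7 scaled reads in knockout replicates 5, 7 and 8, against 324.3, 344.4 and 272.6 in control libraries. At an unadjusted p under 0.05, 2 of the 7 were higher and 1 lower, against 14.4% and 14.9% of all genes. The authors' adjusted p gave the same counts, against 6.22% and 5.93%. Of 6 genes that supply ubiquitin, the activating enzyme gene Uba6 rose (log2 change 0.54, limma adjusted p = 0.037). Of 11 shuttle and unfoldase genes Nploc4 rose (log2 change 0.27, limma adjusted p = 0.0474) and Ubqln2 (-0.37, 0.0265) and Faf2 (-0.42, 0.0329) fell. The calls of Nploc4 and Faf2 were lost in each fit that left out 1 library (limma adjusted p = 0.0546 to 0.136 for Nploc4 and 0.0523 to 0.109 for Faf2) and without the trend (0.122 and 0.053). Nploc4 also missed the threshold with robust limma (adjusted p = 0.0516) and limma-voom (0.0557), and Faf2 with scaling by total reads (limma adjusted p = 0.0581) and by the authors' adjusted p (0.0551). Leaving out single libraries also ended the calls of Ubqln2, Uba6, Nqo1 and Gclc in some fits (limma adjusted p of up to 0.0919, 0.114, 0.105 and 0.071). Nploc4 and Faf2 work with the unfoldase VCP, and Ubqln2 carries ubiquitinated proteins to the proteasome. Of the 3 immune subunit genes left out by name and of 8 muscle ubiquitin ligases 0 changed by limma. At an unadjusted p under 0.05, 1 immune subunit was lower (Psmb8), and 2 ligases were higher (Fbxo32 and Mdm2) and 1 lower (Traf6), of which the authors' adjusted p called Fbxo32. Psmb8 had a log2 change of -0.41 (limma adjusted p = 0.147), the atrophy ligase Fbxo32 0.42 (limma adjusted p = 0.0959) and Trim63 0.001 (limma adjusted p = 0.998). In these lists 3 of 110 rMATS events were called, against 3.44% of all events. They were an exon of Ube3c (85.9% ± 2.20 inclusion in knockout and 97.7% ± 4.04 in control libraries, SD, n = 3 each), an exon of Rad23b (85.7% ± 7.45 and 98.0% ± 3.52) and a retained intron of Ufd1 (14.5% ± 3.56 and 5.53% ± 6.54). The groups overlapped for Rad23b and Ufd1. Skipping reads were few, 4, 5 and 3 in knockout against 0, 0 and 2 in control libraries for Ube3c, and 1, 5 and 4 against 0, 0 and 1 for Rad23b.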

How the data were processed

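Libraries were made from 0.3 µg of total RNA with a directional MGI kit, per the labels. Tools named in the submitters' processing notes, without roles, are STAR 2.7.9a, RSEM 1.3.3, Trimmomatic 0.39 and FastQC 12.0, and the build is GRCm39. The deposited gene table holds log2 values of scaled reads plus 4, although it is titled raw counts. Raising 2 to these values, subtracting 4 and multiplying by each library's factor gave whole reads for 100% of values (tolerance 0.001), and the whole reads recovered this way entered the library totals, CPM and the limma-voom and rescaled alternatives. The planned fallback for log values, limma 3.58.1 in R 4.3.3 with its trend of variance on mean level (4.63 prior degrees of freedom), was fitted to the 14619 genes without covariates, two-sided, with Benjamini-Hochberg adjustment. The script was tested on simulated data. The same table holds the authors' deposited log2 fold changes and adjusted p-values.

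The authors' splicing tables give, per the file headers, rMATS junction read counts, inclusion as a fraction and p-values with FDR, and CASH inclusive and exclusive junction and expression read counts with p-values. rMATS sample 1 was read as control: CASH control exclusion reads equalled the sum of its 3 entries for 378 of 2009 exons, and those of sample 2 for 31 of 2203. For CASH knockout reads, entries 1 and 2 of rMATS sample 2 together gave the same number at 557 of 2203 exons. Coordinates in the files are GRCm39, and annotation coordinates are GRCm38, with no conversion between them. Whether reads were counted by strand is not given, so genes that overlap on the opposite strand, among them Psma4, Psmb7, Psmc3 and Psmd13, may share reads. Intervals and tests used SciPy, and groups came from the genotype label.

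The members and the gene lists were chosen with earlier results of these data known. Named genes were Acin1, the members past the threshold, the catalytic subunits, Psmc6, the extremes of each role group, called list genes, Nfe2l1, Ddi2 and called splice events. Other genes named in the text, and the counts of both forms of Psmb5 exon 2, were chosen after their values were seen. Alternatives were other added values, scalings, filters, limma variants, the authors' adjusted p, and each library left out.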

Additional observations from a re-analysis of the deposited data

How the results depend on the processing

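The median log2 change of the 45 genes was above 0 in each alternative run, while the calls depended on the fit. Of the 45 genes, 6 to 11 passed as higher under other added values, scalings, the CPM minimum, robust limma, limma-voom and the authors' adjusted p, and Psmb5 passed as lower in each of these. Limma without the trend gave 0 higher and 0 lower. Leaving out single libraries gave 0 to 4 higher and 0 to 1 lower, with a median over the 45 of 0.155 (without control replicate 1) to 0.257. Of the list genes, 5 rose and 3 fell. Without the trend 2 rose and 1 fell, scaling by non-mitochondrial reads gave 5 lower, and the authors' adjusted p gave 8 higher. Leaving out libraries gave 2 to 4 higher and 0 to 3 lower. Acin1 had a log2 change of -0.32 without the trend (adjusted p = 0.082), and -0.36 to -0.289 with single libraries left out. Among the 32 genes named by the rule, with libraries left out, signs changed at adjusted p of 0.764 to 0.926 for Psmd3 without control replicate 1 (-0.046) or knockout replicate 8 (-0.015), Psme4 without knockout replicate 8 (0.052) and Ddi2 without control replicate 1 (0.064). Over the libraries left out, the log2 change ran between -0.253 and 0.052 for Psme4, -0.265 and 0.064 for Ddi2 and -0.046 and 0.052 for Psmd3. Of the genes named outside the rule, Psme2 (-0.072 to 0.281) and Trim63 (-0.188 to 0.235) changed sign as well. Of the 2 splice calls 1, that of Psmd14, passed at a minimum of 50 junction reads and with limma on the logit. The CASH FDR called neither and called 1 other member event, that of Psmb5. No paired analysis was possible because the replicate numbers of the groups (1, 2, 3 and 5, 7, 8) are not shared. The causes of these differences were not tested. Precision is limited by 3 libraries a group, and for low genes such as Psmc3ip also by counting error.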
